A study of Mus musculus with 30 samples.

Results

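Mouse embryonic stem (ES) cells labelled Jmj (-/-) were compared with cells that carry floxed Jmj alleles, 4 days after LIF was withdrawn. Jmj (Jumonji) is the gene now called Jarid2. The samples were 5 arrays of these mutant cells, called null here. They were set against 2 arrays of Jmj (fl/fl) cells, called Fl/Fl, which the labels describe as wild type although their alleles are floxed. These are 7 of the 30 arrays of the series, chosen by genotype and day from the labels, and the labels give both groups 1 culture and extraction protocol. The other 23 arrays cover days 0, 2, 6 and 8 and entered the estimate of the spread. The labels do not say how the null line was made, whether it is 1 clone, or whether both lines share a parent. They call the arrays biological replicates without saying that they came from separate cultures, so the p-values reflect no more than the spread among these arrays, part of which may be technical.

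LIF is the cytokine that keeps mouse ES cells undifferentiated through the receptor subunit gp130 and the transcription factor Stat3. Without it the cells pass through a state like the epiblast of the early embryo, marked by Otx2, Pou3f1 and the de novo DNA methyltransferases. In the embryo, Nodal, Wnt, BMP and FGF signals then induce the primitive streak, where factors such as Mixl1, Eomes and Gsc mark the mesendoderm, the common source of mesoderm and endoderm. Jarid2 is a subunit of PRC2, the complex that methylates lysine 27 of histone H3 at many silent developmental genes.

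Levels are probe set intensities on a linear scale, as deposited, and a difference is null minus Fl/Fl on the scale log2(intensity + 4). A fold is 2 raised to that difference, and it understates what happened in genes near the arrays' floor. Each of 18194 genes is read by 1 probe set, and a change was called at an adjusted p under 0.05 (limma, Benjamini-Hochberg over all 18194 genes). In bulk samples, fewer cells of a type and less RNA per cell cannot be told apart. Jarid2 itself read 1470, 1383, 1257, 1317 and 1275 in the null arrays, against 709 and 710 in the Fl/Fl arrays (log2 difference 0.91, SE 0.24, adjusted p = 0.0149). The call was lost without Fl/Fl replicate 1 and again without replicate 2 for Jarid2 (adjusted p = 0.123 and 0.11). Its other 2 probe sets gave differences of 1.06 and 1.09, so all 3 read higher in the arrays labelled null. The sources used here do not give where these probe sets lie relative to the deletion, so the label of the null arrays is neither checked nor settled by them. Null and Fl/Fl stand throughout for the arrays so labelled.

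The null arrays were not alike. Eif2s3y, a gene of the Y chromosome, read 218, 12, 690, 850 and 783 in null replicates 1 to 5, against 182 and 176 in Fl/Fl. Replicates 3, 4 and 5 stood above all 10 Fl/Fl arrays of the series and replicates 1 and 2 did not. The imprinted RNA Meg3 (1227, 340, 21, 73 and 40 in null, 928 and 1009 in Fl/Fl) and the 3'/5' actin control ratio (1.62, 1.62, 1.35, 1.30 and 1.38 in null, 1.57 and 1.53 in Fl/Fl) split the same way. These sets were formed from the values and are not groups of the study. Replicates correlated across genes at r of 0.9827 to 0.9963 among null arrays and 0.9966 between the Fl/Fl arrays. The summed intensity of 6 ES cell markers was 12013 to 13081 in null and 6554 to 7197 in Fl/Fl, so ES cell transcripts were bright in both. Of 10 fibroblast or feeder markers, 7 stayed under 50 on all 7 arrays, and their sum was 152 to 314 in null and 434 to 448 in Fl/Fl. Trophoblast (6 measured of 8), primitive endoderm (8) and neural (5 measured of 6) markers summed to 118 to 142, 134 to 220 and 301 to 611 in null, and to 368 to 482, 219 to 288 and 672 to 702 in Fl/Fl. A sum follows its brightest members. Only Sox2 was called among the ES cell markers, higher, and only Col1a1 among the fibroblast markers, lower. Cdx2, Tfap2c and Krt7 of trophoblast and Gata6 of primitive endoderm were called lower. The 1 called neural marker, Pax6, was higher although the neural sum was lower in null. The part of these differences in the results below was not tested.

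At day 4, 2112 of 18194 genes (11.6%) differed between the genotypes. Null was higher in 760 (4.18%) and lower in 1352 (7.43%), and 1026 genes (5.64%) differed by at least 2-fold. The groups did not overlap in 24.7% of genes, with null higher in 10.4% and lower in 14.3%. Scaling moved the split of the called genes. It was 1142 higher and 1214 lower after quantile normalization. With the 75th percentiles of the arrays aligned it was 1388 higher and 1100 lower, a setting that raised the median difference of all genes by 0.15. The total was 895 without Fl/Fl replicate 1, 1038 without Fl/Fl replicate 2, 2727 with only null replicates 3 to 5 and 1197 with only null replicates 1 and 2.

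Among the called genes whose groups did not overlap, the 15 with the largest fall included streak regulators, signalling genes and genes of the cell surface and muscle cytoskeleton. Mixl1, a homeobox factor of the mesendoderm, was 169.7-fold lower and Cyp26a1, which breaks down retinoic acid, 68.8-fold lower. Aplnr, the apelin receptor of early mesoderm, was 44.5-fold lower. Lgals3, which encodes galectin-3, read 20, 85, 67, 65 and 56 in the null arrays, against 2364 and 2583 in the Fl/Fl arrays (log2 difference -5.43, SE 0.47, adjusted p = 2.2e-07). Cav1, which encodes the caveolae protein caveolin-1, was lower (-4.91, adjusted p = 0.000123), and Csf1, a macrophage growth factor, was 29.2-fold lower. The fall was 23.8-fold for the skeletal muscle actin Acta1, 22.7-fold for the small heat shock protein Cryab, 23.0-fold for the TNF family ligand Tnfsf9 and 19.8-fold for the protocadherin Pcdh7.

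The largest rises were smaller than the largest falls. Cbr3, a carbonyl reductase, read 275, 143, 212, 278 and 340 in the null arrays, against 10 and 9 in the Fl/Fl arrays (log2 difference 4.17, SE 0.42, adjusted p = 1.29e-06), and Enpp3, an ectonucleotide pyrophosphatase, read 677, 564, 907, 1037 and 1082 in the null arrays, against 40 and 49 in the Fl/Fl arrays (log2 difference 4.11, SE 0.39, adjusted p = 7.22e-07). Both groups stood far apart in these genes. Fgf4, a growth factor of the undifferentiated epiblast, was 16.2-fold higher. The matrix protein gene Spon1 was 14.4-fold higher, the drug and nucleotide exporter Abcc4 7.63-fold, and the long noncoding RNA Platr10 8.94-fold. Otx2 and Utf1, described with the epiblast genes below, were also among the 15 largest rises.

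The primitive streak and mesendoderm list held 22 measured transcription factors, of which 9 were lower in null, 0 higher and 13 not called. The median difference was -0.53, against 0 over all genes. The count of this and each later list stands beside 4.18% higher and 7.43% lower over all genes. The lists were chosen with earlier results of these data known, so their counts describe the members and do not test them. Some genes stand in several lists. The list contained 12 factors under 50 on all 7 arrays, which could hardly fall further. Mixl1 read 6, 27, 5, 5 and 6 in the null arrays, against 1964 and 2110 in the Fl/Fl arrays (log2 difference -7.41, SE 0.80, adjusted p = 3.05e-06). Lhx1, a LIM homeobox factor of the streak and later head mesoderm, read 7 in each of the 5 null arrays, against 292 and 443 in the Fl/Fl arrays (log2 difference -5.05, SE 1.01, adjusted p = 0.00191). In both genes the null arrays lay close to the lowest intensities while both Fl/Fl arrays were bright.

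Sp5, a Wnt target that encodes a zinc finger factor, read 7, 37, 93, 61 and 83 in the null arrays, against 1248 and 1001 in the Fl/Fl arrays (log2 difference -4.56, SE 0.57, adjusted p = 1.59e-05). It was above the floor in null replicates 2 to 5, yet the groups did not overlap. Evx1, a homeobox factor of the posterior streak, read 5, 5, 5, 6 and 5 in the null arrays, against 117 and 166 in the Fl/Fl arrays (log2 difference -3.96, SE 0.44, adjusted p = 4.12e-06). Gsc, the organizer factor goosecoid, read 6, 9, 6, 6 and 6 in the null arrays, against 98 and 126 in the Fl/Fl arrays (log2 difference -3.45, SE 0.78, adjusted p = 0.00566). Snai1, which drives the loss of epithelial character in the streak, read 18, 26, 9, 16 and 9 in the null arrays, against 121 and 181 in the Fl/Fl arrays (log2 difference -3.03, SE 0.68, adjusted p = 0.005). Every null array lay below both Fl/Fl arrays in these 4 genes. Cdx2, a posterior and trophoblast factor, read 10, 10, 10, 11 and 10 in the null arrays, against 32 and 68 in the Fl/Fl arrays (log2 difference -1.84, SE 0.25, adjusted p = 4.39e-05). The remaining 2 of the 9, Hoxb1 (-0.27, adjusted p = 0.0148) and Nkx1-2 (-0.58, adjusted p = 0.0161), never exceeded 16 on these arrays, so their calls rest on values near the floor. Among these genes calls were lost without Fl/Fl replicate 1 and again without replicate 2 for Gsc (adjusted p = 0.0519 and 0.0767), without Fl/Fl replicate 1 for Nkx1-2 (0.378), and without Fl/Fl replicate 2 for Snai1 (0.0861) and Hoxb1 (1). The list had 5 lower genes with only null replicates 1 and 2, and 9 with only null replicates 3 to 5. With the 75th percentiles aligned, Hoxb1 (adjusted p = 0.337) and Nkx1-2 (0.105) were not called.

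Eomes, a T-box factor that acts beside Mixl1, differed from these genes. It read 464, 755, 305, 220 and 198 in the null arrays, against 1216 and 1094 in the Fl/Fl arrays (log2 difference -1.74, SE 0.74, adjusted p = 0.152). Its null mean was 388.4 ± 230.0 (SD, n = 5), far above the floor, although each null array lay below each Fl/Fl array. Mesp1, the factor of early cardiac mesoderm, read 5 in each of the 5 null arrays, against 6 and 15 in the Fl/Fl arrays, and Tbx6, a factor of paraxial mesoderm, read 5 in each of the 5 null arrays and 5 in both Fl/Fl arrays. Those later mesoderm factors were near the floor in both genotypes.

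**Figure D1:**
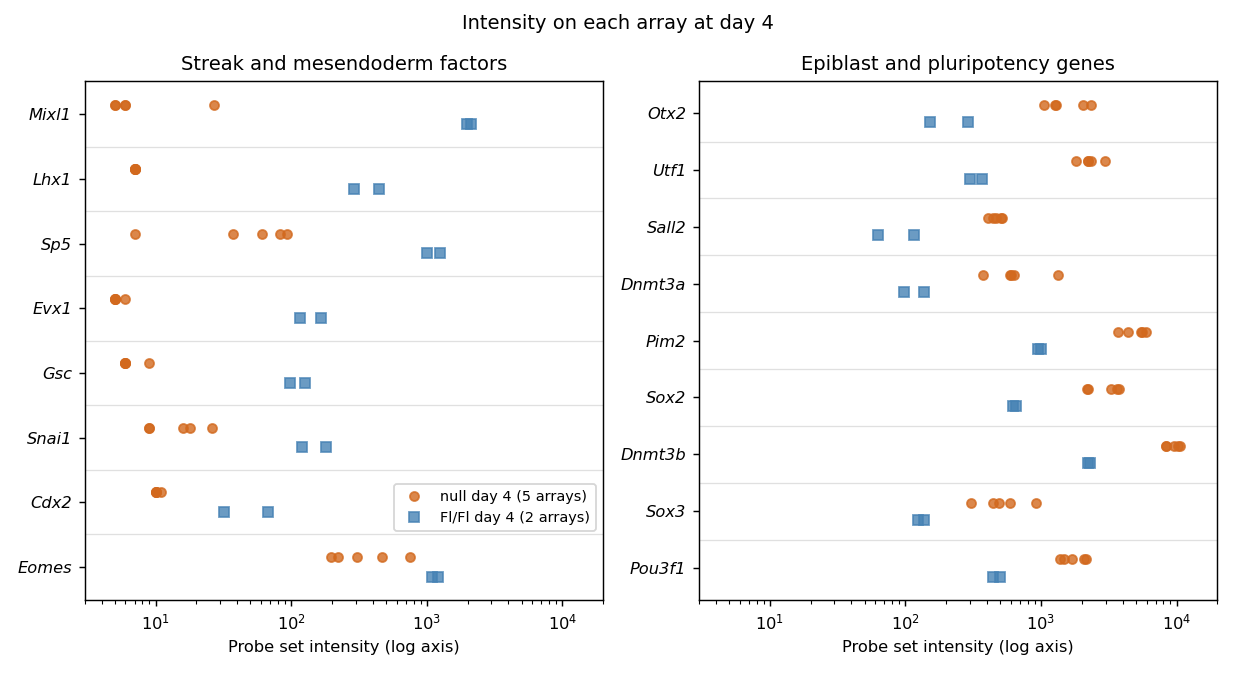
Probe set intensity (log axis) of 8 streak and mesendoderm factors and 9 epiblast or pluripotency genes on each of the 7 arrays of day 4, with null arrays as circles and Fl/Fl arrays as squares below them. Null arrays sit left of Fl/Fl arrays for every factor on the left panel, Eomes being the one that did not pass the test, and right of them for every gene on the right panel. All genes shown except Eomes were taken from the called list members, so the panels do not stand for the whole lists.

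Sp5 is shown by its promoter because it stands in both the streak and the Wnt list. The 300 bases run from 250 before to 50 after the start of the gene (RefSeq, build GRCm38.p6, chr2:70474673-70474972, plus strand). Capitals mark a match to a core letter string of the TCF/LEF factors that carry Wnt signals, at bases -104 to -98 from the start.
Sp5: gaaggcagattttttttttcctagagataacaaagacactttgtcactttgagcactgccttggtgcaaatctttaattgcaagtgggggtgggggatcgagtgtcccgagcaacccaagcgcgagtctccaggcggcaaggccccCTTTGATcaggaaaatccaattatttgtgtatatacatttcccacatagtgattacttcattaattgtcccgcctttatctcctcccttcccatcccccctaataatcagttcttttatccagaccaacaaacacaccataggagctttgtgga
The strings searched were CTTTGAA and CTTTGAT on both strands, and 9.88% of 27025 gene promoters of this length hold one. Among the 8 lower streak factors with a promoter in the table, 1 held a match, and among the 9 lower Wnt genes 2 did, Sp5 and Wnt5b. A match describes the letters only.

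Of 18 measured endoderm genes, 0 were higher and 3 lower, with a median of 0.00, and 13 stayed under 50 on all arrays. Gata6, a factor of endoderm and cardiac precursors, read 7, 8, 7, 8 and 7 in the null arrays, against 62 and 73 in the Fl/Fl arrays (log2 difference -2.65, SE 0.66, adjusted p = 0.0105). The keratin gene Krt19 was lower (-3.93, adjusted p = 5.5e-07), and so was Prdm1, a repressor found in definitive endoderm and germ cell precursors (-1.61, adjusted p = 0.0109). The main definitive endoderm factors were low in both genotypes, with Foxa2 at 4 to 5 in null and 7 to 8 in Fl/Fl and Sox17 at 5 to 9 in null and 8 on both Fl/Fl arrays. Gata4, a partner of Gata6, read 8 to 14 in null and 8 on both Fl/Fl arrays (adjusted p = 1). With 1 array left out, calls were lost without Fl/Fl replicate 1 and again without replicate 2 for Gata6 (adjusted p = 0.0851 and 0.106), and without Fl/Fl replicate 1 for Prdm1 (0.179). For Gata6 a pseudocount of 32 (adjusted p = 0.127) and the mean of its probe sets (0.201) ended it as well.

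The cardiovascular and blood list had 21 measured genes, 18 of them under 50 on all 7 arrays. None of its 13 transcription factors was called in either direction; all 13 were under 50. Aplnr read 4 in each of the 5 null arrays, against 309 and 401 in the Fl/Fl arrays (log2 difference -5.48, SE 1.00, adjusted p = 0.000906). Flt1, a VEGF receptor, was also lower (-1.51, adjusted p = 0.00863). Kdr, the VEGF receptor that marks the first blood and vessel precursors, read 13, 12, 12, 12 and 8 in the null arrays, against 41 and 63 in the Fl/Fl arrays (adjusted p = 0.06). The call did not hold without Fl/Fl replicate 1 for Flt1 (adjusted p = 0.138).

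Nodal signalling genes changed in both directions. Of 24 measured members, 3 were higher and 4 lower, with a median of -0.02. The ligand Nodal itself read 1397, 1526, 2626, 2655 and 2390 in the null arrays, against 2844 and 2811 in the Fl/Fl arrays (difference -0.47, adjusted p = 0.367). Its co-receptor Tdgf1 (Cripto) averaged 9764.2 ± 1363.9 in null and 6100.5 ± 1149.0 in Fl/Fl (SD), and Foxh1, the DNA-binding partner of the Smads, averaged 1296.8 ± 132.8 in null and 960.5 ± 103.9 in Fl/Fl. Neither passed the test (adjusted p = 0.644 and 0.438). Ligand, co-receptor and DNA-binding partner were thus all measured well above the floor in null. Gdf3, a ligand of the same family that pluripotent cells make, read 514, 397, 906, 929 and 1016 in the null arrays, against 216 and 249 in the Fl/Fl arrays (log2 difference 1.59, SE 0.42, adjusted p = 0.0156).

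The feedback inhibitors and targets of Nodal went both ways. Lefty2, a secreted antagonist that Nodal induces, read 197, 259, 146, 223 and 148 in the null arrays, against 663 and 866 in the Fl/Fl arrays (log2 difference -1.97, SE 0.41, adjusted p = 0.00301). Lefty1, its close relative, read 417 to 700 in null and 813 to 816 in Fl/Fl (-0.65, adjusted p = 0.39). Fst (follistatin), which binds activin, read 320, 506, 944, 814 and 741 in the null arrays, against 3462 and 3285 in the Fl/Fl arrays (log2 difference -2.43, SE 0.74, adjusted p = 0.0361). Pmepa1, a feedback target of TGF-beta signals, was lower (-1.24, adjusted p = 0.00127), as was the signal carrier Smad2 (-0.56, adjusted p = 0.0279). The inhibitory Smad7 (0.91, adjusted p = 0.0357) and the Smad corepressor Skil (0.53, adjusted p = 0.000122) were higher. Thus 2 inhibitors fell and 1 rose among the 6 measured. Of these calls, some were lost without Fl/Fl replicate 1 and again without replicate 2 for Gdf3 (adjusted p = 0.16 and 0.0891), Fst (0.216 and 0.177), Smad7 (0.175 and 0.213) and Smad2 (0.119 and 0.223), and without Fl/Fl replicate 2 for Lefty2 (0.065). Further losses came for Fst without null replicate 1, 2 or 5 (0.051 to 0.0697), for Smad7 without null replicate 3, 4 or 5 (0.0654 to 0.0728) and for Smad2 without null replicate 3 (0.0519). With only null replicates 1 and 2 the adjusted p was 0.294 for Gdf3 and 0.378 for Smad7. The Smad2 call was also lost after quantile normalization (adjusted p = 0.137) and with aligned 75th percentiles (0.156). The mean of its probe sets ended it as well (0.248).

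The Wnt list had more falls, 11 lower and 2 higher of 46, with a median of -0.19. Among 10 measured ligands, 4 were lower. Wnt3, the ligand that starts the streak in the mouse embryo, read 40, 37, 85, 53 and 47 in the null arrays, against 142 and 179 in the Fl/Fl arrays (log2 difference -1.59, SE 0.50, adjusted p = 0.044). Wnt5b read 17, 21, 17, 20 and 17 in the null arrays, against 101 and 132 in the Fl/Fl arrays (log2 difference -2.42, SE 0.29, adjusted p = 9.7e-06). Wnt4 (-2.37, adjusted p = 0.00525) and Wnt5a, a ligand of the non-canonical branch (-2.33, adjusted p = 0.0103), were lower as well. Wnt8a, a streak ligand, read 54 to 114 in null and 78 to 107 in Fl/Fl (adjusted p = 1). Its groups overlapped, unlike those of the 4 called ligands. The fall was 6.31-fold for Wls, the carrier that Wnt ligands need for secretion, which read 90, 161, 157, 110 and 109 in the null arrays, against 755 and 834 in the Fl/Fl arrays (log2 difference -2.66, SE 0.35, adjusted p = 3.68e-05).

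Calls among Wnt receptors and modulators were few and went both ways. The receptor Fzd10 read 35, 46, 46, 35 and 51 in the null arrays, against 252 and 314 in the Fl/Fl arrays (log2 difference -2.63, SE 0.26, adjusted p = 1.29e-06). The receptor Fzd7, known from undifferentiated ES cells, read 1058, 1057, 954, 851 and 982 in the null arrays, against 286 and 355 in the Fl/Fl arrays (log2 difference 1.60, SE 0.28, adjusted p = 0.000584). They were the 2 called receptors of 14 measured, 1 in each direction, and the other 12 did not pass. Of the 8 measured inhibitors, 6 did not pass. Sfrp2 read 187, 172, 220, 154 and 199 in the null arrays, against 29 and 38 in the Fl/Fl arrays (log2 difference 2.34, SE 0.27, adjusted p = 8.16e-06), while Frzb, a secreted inhibitor of the same family, was lower (-2.58, adjusted p = 0.00551). The agonist Rspo3 was lower (-2.43, adjusted p = 0.000356). Axin2, the general feedback target of canonical Wnt, read 153, 127, 102, 107 and 156 in the null arrays, against 472 and 469 in the Fl/Fl arrays (log2 difference -1.86, SE 0.35, adjusted p = 0.00116), and Tcf7l2, a factor that reads the signal, was lower (-0.84, adjusted p = 0.0204). With Sp5, 2 of 4 measured target genes were lower. Calls did not hold without Fl/Fl replicate 1 and again without replicate 2 for Wnt3 (adjusted p = 0.17 and 0.272), Wnt4 (0.0672 and 0.0562), Frzb (0.065 and 0.0619) and Tcf7l2 (0.114 and 0.167), and without Fl/Fl replicate 2 for Wnt5a (0.166). It was also lost for Wnt3 without null replicate 1, 2, 4 or 5 (0.0656 to 0.0737). Quantile normalization ended the calls for Wnt3 (0.0825) and Tcf7l2 (0.0812), and the mean of its probe sets that for Wnt5a (0.0772).

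In the BMP list 6 of 27 genes were lower and 0 higher (median -0.25). Bmp4, the ligand that induces mesoderm from the extraembryonic ectoderm, read 10, 17, 34, 9 and 9 in the null arrays, against 250 and 347 in the Fl/Fl arrays (log2 difference -4.05, SE 0.58, adjusted p = 7.45e-05). Bmp8b, another BMP ligand, read 57, 36, 32, 24 and 31 in the null arrays, against 93 and 180 in the Fl/Fl arrays (log2 difference -1.79, SE 0.41, adjusted p = 0.00567), and Bmpr2, a receptor, read 547, 564, 512, 448 and 480 in the null arrays, against 1115 and 1116 in the Fl/Fl arrays (log2 difference -1.13, SE 0.19, adjusted p = 0.000501). Both ligands and the receptor lay lower on every null array than on either Fl/Fl array. The antagonists Nog (-2.43, adjusted p = 0.000344, 3 in each of the 5 null arrays, against 17 and 64 in the Fl/Fl arrays) and Twsg1 (-0.79, adjusted p = 0.0343) were lower too, beside Fst. The direct targets were not called: Id1 averaged 1518.2 ± 993.6 in null and 656.5 ± 96.9 in Fl/Fl, Id2 1738.0 ± 1035.6 in null and 2083.5 ± 10.6 in Fl/Fl and Id3 399.0 ± 148.0 in null and 376.0 ± 46.7 in Fl/Fl (SD), none of 9 targets passing. Msx1, a BMP target of posterior mesoderm, read 11, 13, 13, 14 and 15 in the null arrays, against 112 and 84 in the Fl/Fl arrays (adjusted p = 0.0541). The call was lost without Fl/Fl replicate 1 and again without replicate 2 for Twsg1 (adjusted p = 0.128 and 0.262), and without Fl/Fl replicate 2 for Bmp8b (0.163). Another loss came for Twsg1 without null replicate 3, 4 or 5 (0.0551 to 0.0744). The calls for Bmpr2 and Twsg1 were lost with the mean of their probe sets (adjusted p = 0.123 and 0.492). Quantile normalization (0.0808) and aligned 75th percentiles (0.0528) also ended that for Twsg1.

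FGF ligands differed in opposite directions. Fgf4 read 103, 45, 320, 312 and 304 in the null arrays, against 5 and 9 in the Fl/Fl arrays (log2 difference 4.02, SE 0.50, adjusted p = 1.81e-05). Fgf8, the ligand of the streak that cells need to leave it, read 36, 62, 12, 12 and 12 in the null arrays, against 367 and 386 in the Fl/Fl arrays (log2 difference -3.90, SE 0.63, adjusted p = 0.000297). Fgf4 was higher, and Fgf8 lower, on each null array than on either Fl/Fl array. Fgf5, the classical epiblast marker, averaged 754.0 ± 79.2 in null and 339.5 ± 103.9 in Fl/Fl and did not pass (1.17, adjusted p = 0.174). A second Fgf5 probe set averaged 207.2 ± 30.4 in null and 45.0 ± 4.2 in Fl/Fl, a difference of 2.10 that was not tested on its own. Fgf15 was higher near the floor (0.84, adjusted p = 0.00835). The receptor Fgfr1 was lower on every null array (725, 875, 866, 778 and 839 in the null arrays, against 1521 and 1749 in the Fl/Fl arrays, adjusted p = 0.000348).

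Over the FGF and ERK list, 4 of 24 genes were higher and 5 lower. The feedback phosphatase Dusp4 read 32, 71, 230, 185 and 225 in the null arrays, against 1994 and 2285 in the Fl/Fl arrays (log2 difference -4.13, SE 0.51, adjusted p = 1.5e-05). Dusp6, which also removes phosphate from ERK, read 1097, 1417, 2088, 2304 and 2091 in the null arrays, against 2238 and 2476 in the Fl/Fl arrays (-0.44, adjusted p = 0.3). The feedback inhibitor Spry2 read 1002, 1481, 2431, 2199 and 2353 in the null arrays, against 851 and 743 in the Fl/Fl arrays (log2 difference 1.17, SE 0.29, adjusted p = 0.0102). The called feedback genes ranged from a 17.5-fold fall to a 2.25-fold rise. The ERK target factor Etv4 was higher (0.74, adjusted p = 0.0371), and the feedback inhibitor Il17rd (-0.65, adjusted p = 0.0205) and the immediate early gene Fos (-2.90, adjusted p = 0.0132) were lower. Among these genes calls were lost without Fl/Fl replicate 1 and again without replicate 2 for Fgf15 (adjusted p = 0.0888 and 0.0787), Spry2 (0.069 and 0.122), Etv4 (0.277 and 0.139), Il17rd (0.0822 and 0.215) and Fos (0.0971 and 0.121). It was also lost for Etv4 without null replicate 3, 4 or 5 (0.0569 to 0.0732). The call for Fgf4 was lost in a fit of the day 4 arrays alone (adjusted p = 0.0564). That for Etv4 was lost with the mean of its probe sets (0.0818), and that for Il17rd with aligned 75th percentiles (0.0566).

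**Figure D2:**
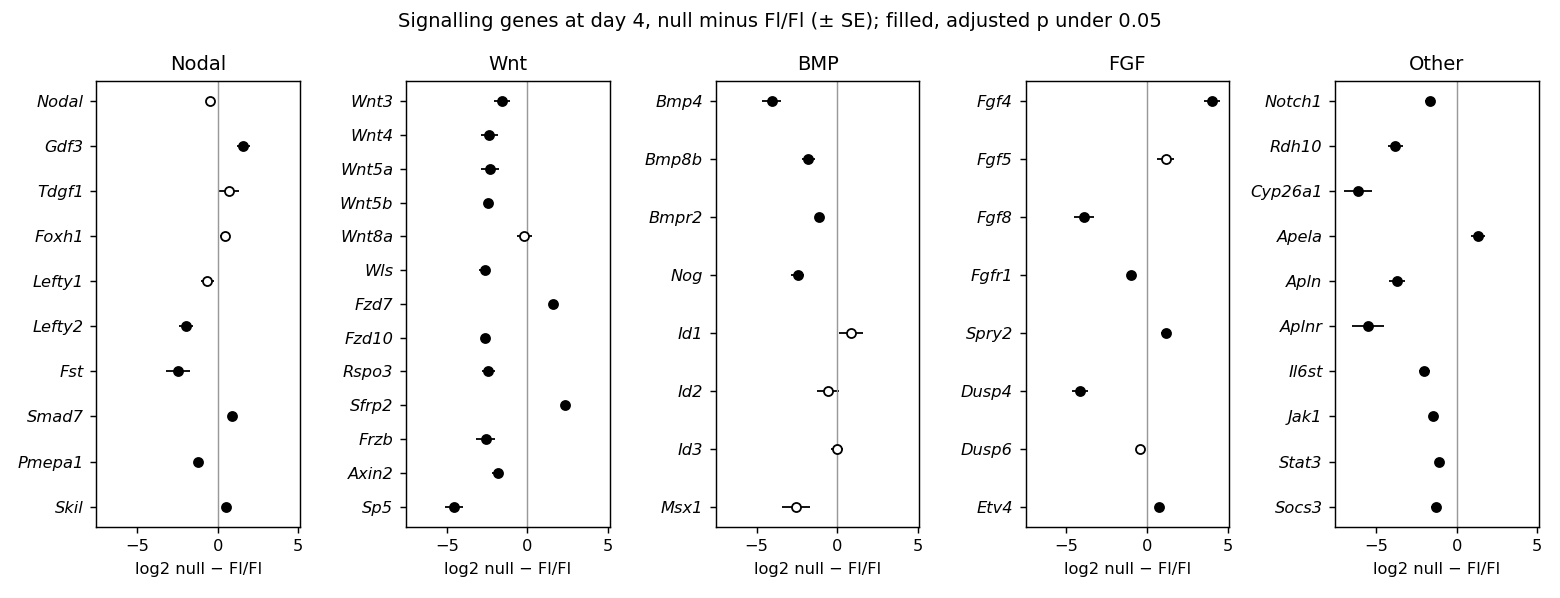
Difference on the log2(intensity + 4) scale, null minus Fl/Fl, with its standard error, for named genes of the Nodal, Wnt, BMP and FGF lists and of the Notch, retinoic acid, apelin and LIF lists (last panel). Filled points passed an adjusted p under 0.05. Wnt3, Wnt4, Wnt5a and Wnt5b lie left of 0, while Fgf4 lies at 4.02 and Fgf8 at -3.90.

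Smaller signalling lists followed. In the retinoic acid list 3 of 14 were lower and 0 higher. Cyp26a1, the enzyme that clears retinoic acid, read 4, 5, 5, 4 and 5 in the null arrays, against 490 and 703 in the Fl/Fl arrays (log2 difference -6.11, SE 0.85, adjusted p = 5.49e-05). Rdh10, which makes its precursor, read 49, 60, 76, 62 and 67 in the null arrays, against 960 and 872 in the Fl/Fl arrays (log2 difference -3.80, SE 0.48, adjusted p = 2.03e-05). An enzyme of synthesis and one of breakdown were thus both lower. Aldh1a1, an enzyme of the last step of synthesis, was called lower with no value above 6 (-0.15, adjusted p = 0.0421). Its call was lost without each of the 7 arrays in turn, with adjusted p of 0.0524 to 0.225.

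Cyp26a1 is shown by its promoter because retinoic acid is known to induce the gene through an element near its start. The window is again 250 bases before to 50 after the start (RefSeq, build GRCm38.p6, chr19:37697558-37697857, plus strand). Capitals mark a pair of direct repeats spaced by 5 bases, the form bound by retinoic acid receptors, at -32 to -16 and on the opposite strand.
Cyp26a1: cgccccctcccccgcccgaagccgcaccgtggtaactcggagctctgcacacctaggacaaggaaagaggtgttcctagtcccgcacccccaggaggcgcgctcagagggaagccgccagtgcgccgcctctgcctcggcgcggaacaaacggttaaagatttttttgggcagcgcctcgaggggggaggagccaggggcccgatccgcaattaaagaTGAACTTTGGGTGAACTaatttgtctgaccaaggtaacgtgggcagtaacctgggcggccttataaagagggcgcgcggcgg
The repeats searched on both strands were AGTTCA or AGGTCA, 5 bases of any kind, then AGTTCA or AGGTCA. Of 27025 gene promoters, 13 (0.0481%) hold such a match.

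The apelin list was divided. Aplnr and its ligand Apln fell, Apln reading 12, 16, 16, 12 and 13 in the null arrays, against 326 and 154 in the Fl/Fl arrays (log2 difference -3.69, SE 0.47, adjusted p = 2.27e-05). Apela (Elabela), the other ligand of that receptor and one that pluripotent cells make, read 2794, 3699, 5122, 4715 and 4834 in the null arrays, against 1579 and 1707 in the Fl/Fl arrays (log2 difference 1.33, SE 0.42, adjusted p = 0.0425). The chemokine Cxcl12 was higher near the floor (0.76, adjusted p = 0.0316). In null the receptor was at the floor on all 5 arrays while Apela was bright. Among 14 Notch genes, the receptor Notch1 (-1.67, adjusted p = 0.000769) and the target Hes1 (-1.22, adjusted p = 0.017) were lower and 0 were higher. With 1 array left out, calls were lost without Fl/Fl replicate 1 and again without replicate 2 for Apela (adjusted p = 0.256 and 0.179), Cxcl12 (0.191 and 0.171) and Hes1 (0.0891 and 0.171). Further losses came for Apela without null replicate 3, 4 or 5 (0.0777 to 0.0818) and for Cxcl12 without null replicate 1 or 3 (0.0615 to 0.0626).

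The LIF and STAT3 list had 6 of 12 members lower, 0 higher and a median of -0.88. Il6st, which encodes gp130, read 64, 117, 81, 39 and 74 in the null arrays, against 293 and 297 in the Fl/Fl arrays (log2 difference -2.00, SE 0.34, adjusted p = 0.000469). Jak1, its kinase (-1.45, adjusted p = 0.000413), and Stat3 (-1.08, adjusted p = 0.000929) were lower, and so were the feedback inhibitor Socs3 (-1.27, adjusted p = 0.00694) and the STAT3-responsive factors Tfcp2l1 (-2.06, adjusted p = 0.00318) and Klf5 (-1.58, adjusted p = 8.57e-05). The called genes included receptor, kinase, factor and targets, all in 1 direction. Klf5 read 748, 1189, 1674, 1422 and 1184 in the null arrays, against 3698 and 3489 in the Fl/Fl arrays, above the floor on every array. The call did not hold without Fl/Fl replicate 2 for Socs3 (adjusted p = 0.103) and Tfcp2l1 (0.0501). That for Socs3 was also lost with the mean of its probe sets (adjusted p = 0.209). For Tfcp2l1 it was lost in a fit of the day 4 arrays alone (adjusted p = 0.0741). Further Tfcp2l1 probe sets, which averaged 17.4 and 9.2 in null, gave 0.03 and -0.03.

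Epiblast genes formed the opposite pattern. Of 22 measured formative and primed epiblast genes, 13 were higher in null, 1 was lower (Lefty2) and 8 were not called, with a median of 1.45. Otx2, the homeobox factor of the epiblast and later forebrain, read 2332, 2051, 1053, 1259 and 1286 in the null arrays, against 152 and 288 in the Fl/Fl arrays (log2 difference 2.84, SE 0.49, adjusted p = 0.000563). Pou3f1 (Oct6) read 1477, 1392, 2089, 1680 and 2147 in the null arrays, against 501 and 442 in the Fl/Fl arrays (log2 difference 1.87, SE 0.33, adjusted p = 0.000613). Sall2, a zinc finger factor, read 404, 508, 467, 445 and 520 in the null arrays, against 63 and 116 in the Fl/Fl arrays (log2 difference 2.39, SE 0.24, adjusted p = 1.51e-06). No null array overlapped an Fl/Fl array in these factors, in which null was 3.65 to 7.15-fold higher. Sox3, a factor of epiblast and neural plate, read 588, 915, 446, 304 and 488 in the null arrays, against 124 and 137 in the Fl/Fl arrays (log2 difference 1.95, SE 0.30, adjusted p = 0.000174). The kinase gene Pim2 averaged 5018.0 ± 937.8 in null and 970.0 ± 36.8 in Fl/Fl (SD, 2.35, adjusted p = 0.000581). Foxd3, which keeps pluripotent cells from differentiating, was higher at low level (30, 41, 40, 42 and 52 in the null arrays, against 11 in both Fl/Fl arrays, 1.57, adjusted p = 1.94e-06). The call for Sox3 was lost in a fit of the day 4 arrays alone (adjusted p = 0.0507). The number of higher genes was 12 with only null replicates 3 to 5 and 13 with only replicates 1 and 2. Car14, a carbonic anhydrase gene of this list, was called higher as well (2.06, adjusted p = 0.0476). It read 263, 194, 31, 28 and 56 in the null arrays, against 16 and 15 in the Fl/Fl arrays. With only null replicates 3 to 5 its adjusted p was 0.181. Of these calls, some were lost without Fl/Fl replicate 1 and again without replicate 2 for Car14 (adjusted p = 0.23 and 0.226). Another loss came for Car14 without null replicate 1, 2 or 5 (0.056 to 0.088).

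The broader pluripotency list had 37 measured genes, of which 8 were higher, 3 lower and 26 not called (median 0.63). Sox2, a core factor, read 2218, 2182, 3662, 3309 and 3732 in the null arrays, against 623 and 654 in the Fl/Fl arrays (log2 difference 2.20, SE 0.29, adjusted p = 3.07e-05). Utf1, a chromatin factor of ES cells, read 2946, 1806, 2214, 2324 and 2237 in the null arrays, against 298 and 365 in the Fl/Fl arrays (log2 difference 2.77, SE 0.46, adjusted p = 0.000359). The 2 best known core factors did not pass: Pou5f1 (Oct4) read 8154, 7584, 6254, 6556 and 6950 in the null arrays, against 4243 and 4592 in the Fl/Fl arrays (0.68, adjusted p = 0.204) and Nanog read 1560, 2212, 1153, 1037 and 1169 in the null arrays, against 1261 and 1435 in the Fl/Fl arrays (0.03, adjusted p = 1). Pou5f1 was thus bright in both genotypes at day 4, and Nanog overlapped. Esrrb, a factor of the naive state, was low in both (8 to 15 in null and 12 to 25 in Fl/Fl). The other higher genes were Foxd3, Gdf3, the phosphatase gene Alpl (1.74, adjusted p = 0.0123), the zinc finger genes Zscan10 (1.26, adjusted p = 0.0102) and Sall4 (0.89, adjusted p = 0.0496), and the adhesion gene Epcam (0.46, adjusted p = 0.0197). Besides Klf5 and Tfcp2l1, the glucose transporter Slc2a3 was lower (-0.86, adjusted p = 2.46e-05), a call lost with the mean of its probe sets (adjusted p = 0.124). Calls did not hold without Fl/Fl replicate 1 and again without replicate 2 for Alpl (adjusted p = 0.11 and 0.0998), Sall4 (0.334 and 0.158), Epcam (0.251 and 0.065) and Gdf3 (0.16 and 0.0891), without Fl/Fl replicate 1 for Zscan10 (0.165), and without Fl/Fl replicate 2 for Tfcp2l1 (0.0501). It was also lost for Sall4 without null replicate 1, 3, 4 or 5 (0.0581 to 0.0933) and after quantile normalization (0.0527). The number of higher genes was 3 without Fl/Fl replicate 1, 4 without Fl/Fl replicate 2 and 14 without null replicate 2. Null replicates 3 to 5 alone gave 17, and null replicates 1 and 2 alone gave 3.

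**Figure D3:**
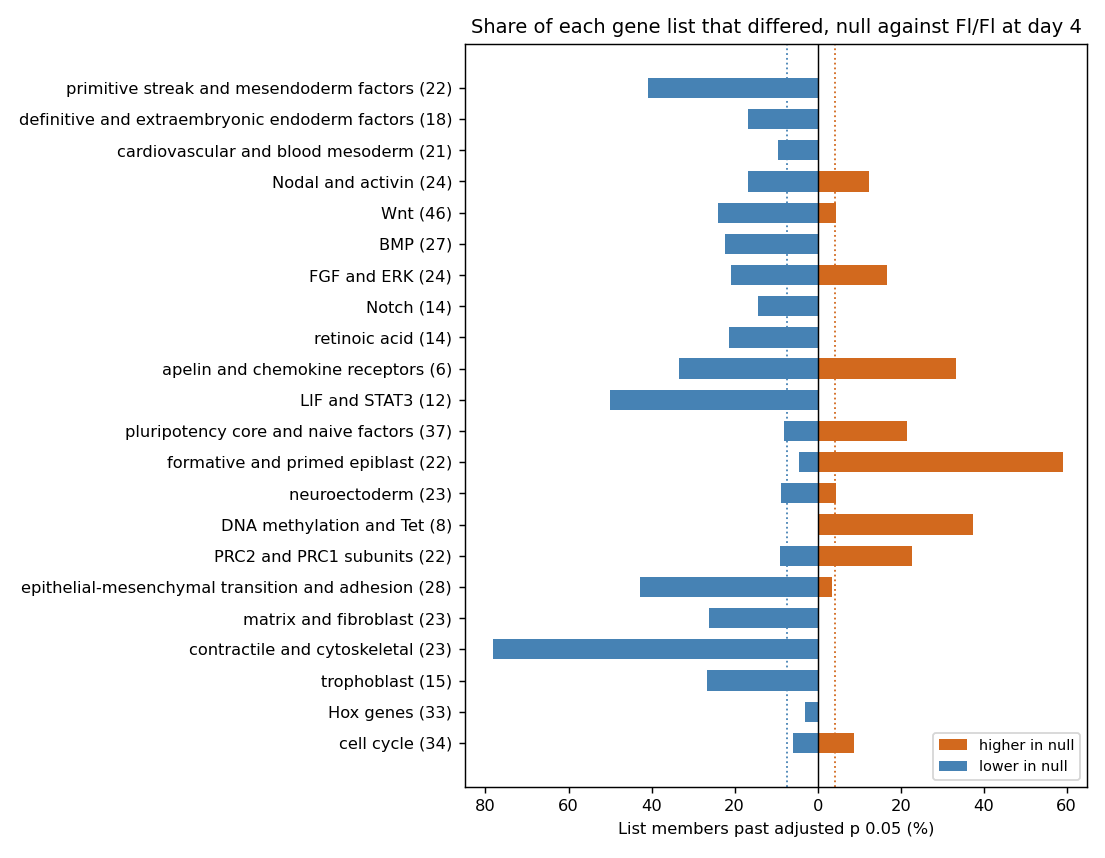
Share of the measured members of each gene list that passed an adjusted p under 0.05, higher in null to the right and lower to the left, with the number of measured members in brackets. Dotted lines mark the shares over all 18194 genes, 4.18% higher and 7.43% lower. The epiblast list reaches farthest to the right and the contractile list farthest to the left. The lists were chosen with earlier results of these data known, so the shares do not test them.

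The spread within the pluripotency list followed the sets of null arrays. In 9 of its 37 genes (24.3%), null replicates 3, 4 and 5 each lay at least 2-fold above both replicates 1 and 2, against 0.824% of all genes. The opposite order, counted over all genes, was found in 0.786%, and in 0 of the 37. Dnmt3l, the cofactor of the de novo methyltransferases, read 122, 39, 1492, 1757 and 1599 in the null arrays, against 156 and 164 in the Fl/Fl arrays. Dppa2, a chromatin factor of pluripotent cells, read 176, 142, 1435, 1306 and 1410 in the null arrays, against 144 and 158 in the Fl/Fl arrays, and Klf2, a factor of the naive state, read 6, 6, 140, 159 and 141 in the null arrays, against 15 and 58 in the Fl/Fl arrays. In Dnmt3l and Dppa2 the Fl/Fl arrays lay near null replicates 1 and 2, and in Klf2 between the sets, and none passed the test (adjusted p = 0.533, 0.241 and 0.908). Rex2, Tex19.1 and Zfp42 (Rex1), other genes of undifferentiated ES cells, were among the 9, as were Dppa5a, Fbxo15 and Nr5a2. The BMP targets Id1 (496, 450, 2652, 1897 and 2096 in the null arrays, against 588 and 725 in the Fl/Fl arrays) and Id2 had replicates 3 to 5 at least 2-fold above replicates 1 and 2, as did Fgf4 and Dusp4. Fgf8, Car14, Flt1 and Actc1 were among the listed genes with the opposite order.

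**Figure D4:**
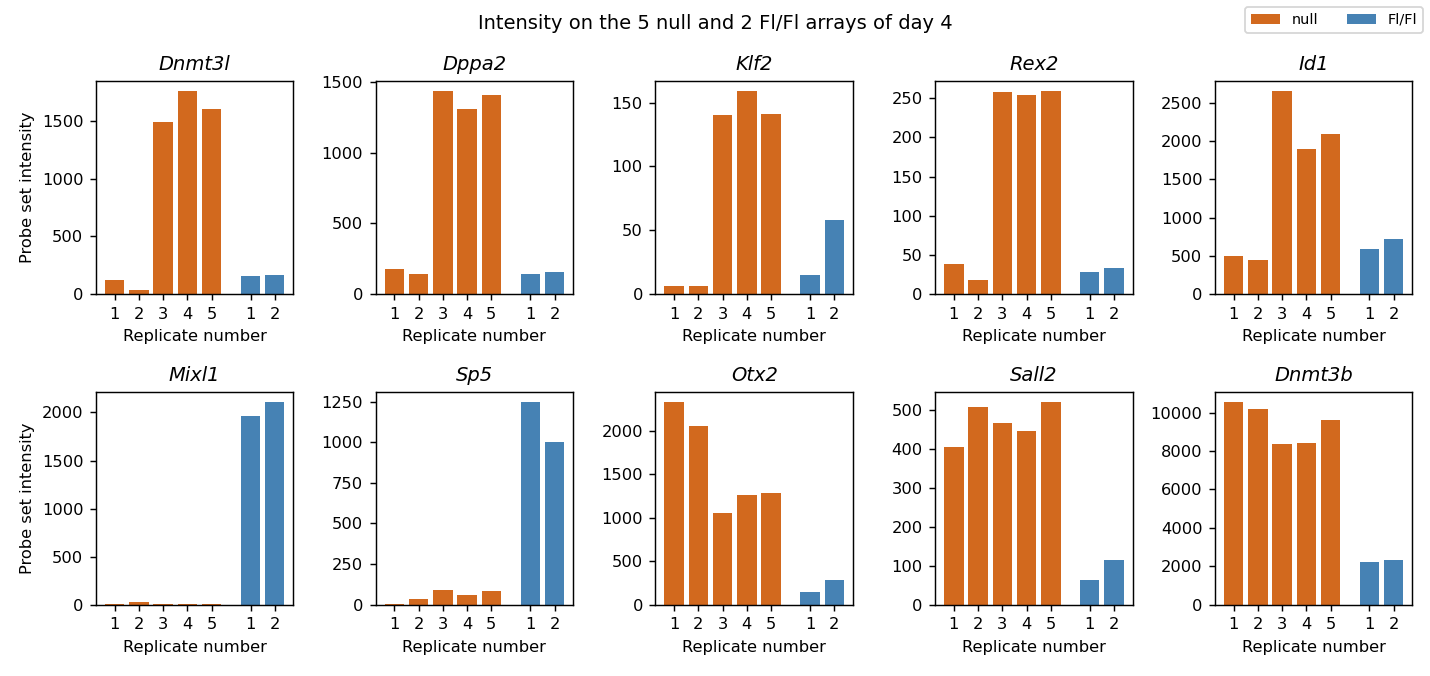
Probe set intensity on the 5 null arrays (left bars of each panel) and the 2 Fl/Fl arrays (right bars) of day 4, by replicate number. Dnmt3l, Dppa2, Klf2, Rex2 and Id1 are at least 2-fold higher in null replicates 3 to 5 than in replicates 1 and 2, whereas Mixl1 and Sp5 are low, and Otx2, Sall2 and Dnmt3b high, in all 5.

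Of 8 measured genes for DNA methylation and its removal, 3 were higher and 0 lower. Of these, Dnmt3a and Dnmt3b were also counted among the higher epiblast genes. Dnmt3b, a de novo methyltransferase, read 10553, 10167, 8377, 8412 and 9629 in the null arrays, against 2207 and 2308 in the Fl/Fl arrays (log2 difference 2.05, SE 0.36, adjusted p = 0.000555). Dnmt3a, the second such enzyme, read 1326, 587, 374, 633 and 600 in the null arrays, against 98 and 137 in the Fl/Fl arrays (log2 difference 2.43, SE 0.47, adjusted p = 0.00139). Tet1, which oxidizes methylated cytosine, read 720, 677, 1036, 1258 and 1190 in the null arrays, against 328 and 352 in the Fl/Fl arrays (log2 difference 1.47, SE 0.21, adjusted p = 9.09e-05). All 3 were higher on each null array than on either Fl/Fl array. The probe sets of Dnmt3a disagreed: another gave 2.72, and 1 that averaged 77.4 in null and 73 in Fl/Fl gave -0.04.

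Of 22 measured Polycomb subunits, 5 were higher, 2 lower and 15 not called (median 0.17). Over all genes 4.18% were higher and 7.43% lower. The PRC2 core members Ezh2, the methyltransferase, and Suz12 were both measured, Ezh2 averaging 926.2 ± 112.8 in null and 866.5 ± 26.2 in Fl/Fl, and Suz12 averaging 1411.6 ± 207.8 in null and 1393.5 ± 4.9 in Fl/Fl (SD). Their differences were 0.09 and 0.01, with an adjusted p of 1 for both. Beside Jarid2, the higher genes were the core PRC2 subunit Eed (0.46, adjusted p = 0.03) and the PRC1 subunits Phc1 (1.13, adjusted p = 1.59e-05), Cbx7 (1.12, adjusted p = 0.0069) and Pcgf6 (0.84, adjusted p = 0.000546). Phc1 read 4762, 3851, 4148, 4572 and 4204 in the null arrays, against 1926 and 2001 in the Fl/Fl arrays, and its paralogue Phc2, which was lower, read 295, 270, 348, 351 and 314 in the null arrays, against 730 and 657 in the Fl/Fl arrays (-1.13, adjusted p = 0.000148). This pair moved in opposite directions. The histone-binding subunit Rbbp7 was slightly lower (-0.26, adjusted p = 0.0249). The call was lost without Fl/Fl replicate 1 and again without replicate 2 for Eed (adjusted p = 0.127 and 0.23) and Rbbp7 (0.124 and 0.191), and without Fl/Fl replicate 1 for Cbx7 (0.142). Further losses came for Eed without null replicate 3, 4 or 5 (0.0586 to 0.0672) and for Rbbp7 without null replicate 4 (0.056). Quantile normalization (adjusted p = 0.449) and aligned 75th percentiles (0.394) also ended the call for Rbbp7.

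Of 23 measured contractile and cytoskeletal genes, 18 were lower and 0 higher, with a median of -1.50. That list also holds annexin, S100 and galectin genes, Lgals3 among them. The annexin gene Anxa1 read 78, 267, 269, 111 and 131 in the null arrays, against 2376 and 2133 in the Fl/Fl arrays (log2 difference -3.85, SE 0.61, adjusted p = 0.000244). The calcium-binding S100a6 read 205, 333, 419, 242 and 236 in the null arrays, against 4094 and 4636 in the Fl/Fl arrays (log2 difference -3.95, SE 0.49, adjusted p = 1.59e-05). The smooth muscle actin Acta2 was lower with a wide spread among the null arrays (623, 1252, 275, 328 and 118 in the null arrays, against 4406 and 4196 in the Fl/Fl arrays, log2 difference -3.47, SE 0.86, adjusted p = 0.0107). S100a10 (-1.93, adjusted p = 3.01e-08) and Anxa2 (-2.68, adjusted p = 8.16e-06), which form 1 complex at the membrane, were both lower.

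Among 28 genes of adhesion and epithelial-mesenchymal transition, 12 were lower and 1 (Epcam) higher, and both sides of that transition took part. Of 15 measured epithelial genes 7 were lower, and of 13 mesenchymal genes 5. The desmosome gene Dsp read 232, 559, 310, 161 and 192 in the null arrays, against 4916 and 4693 in the Fl/Fl arrays (log2 difference -4.17, SE 0.49, adjusted p = 8.54e-06), and Krt8, a keratin of simple epithelium, read 1223, 2029, 1262, 988 and 805 in the null arrays, against 13147 and 14298 in the Fl/Fl arrays (log2 difference -3.51, SE 0.43, adjusted p = 1.59e-05). Its partner Krt18 (-3.22, adjusted p = 1.46e-05) and the tight junction gene Cldn4 (-3.95, adjusted p = 1.99e-05) were lower. On the mesenchymal side, fibronectin, Fn1, read 1001, 1431, 1245, 1093 and 1017 in the null arrays, against 8909 and 8501 in the Fl/Fl arrays (log2 difference -2.92, SE 0.26, adjusted p = 4.36e-07). N-cadherin, Cdh2, was 7.18-fold lower and vimentin, Vim, 3.07-fold (adjusted p = 0.000348 and 0.0322). E-cadherin, Cdh1, read 5125 to 7041 in null and 8077 to 8449 in Fl/Fl and did not pass (-0.54, adjusted p = 0.0551). Among these genes calls were lost without Fl/Fl replicate 1 and again without replicate 2 for Acta2 (adjusted p = 0.106 and 0.0878) and Vim (0.232 and 0.143). It was also lost for Vim without null replicate 1 or 2 (0.0531 to 0.0586). For Acta2 the mean of its probe sets ended the call (0.0538).

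Among 23 matrix and fibroblast genes 6 were lower and 0 higher. The collagen gene Col5a1 read 57, 108, 78, 58 and 61 in the null arrays, against 1119 and 1139 in the Fl/Fl arrays (log2 difference -3.93, SE 0.43, adjusted p = 3.29e-06), and Col1a1 read 35, 22, 26, 24 and 10 in the null arrays, against 214 and 225 in the Fl/Fl arrays (log2 difference -3.10, SE 0.56, adjusted p = 0.000837). Col3a1, also abundant in fibroblasts, read 8 to 9 in null and 14 to 20 in Fl/Fl (-0.70, adjusted p = 0.703), and Dcn, a fibroblast proteoglycan, read 91, 68, 12, 16 and 10 in the null arrays, against 31 in both Fl/Fl arrays (-0.16, adjusted p = 1). The other lower genes were Col4a1 (-1.30, adjusted p = 0.00863), Col4a2 (-2.65, adjusted p = 0.0105), the collagen cross-linking enzyme Lox (-2.20, adjusted p = 0.0374) and the matricellular Ccn1 (-1.49, adjusted p = 0.00743). With 1 array left out, calls were lost without Fl/Fl replicate 1 and again without replicate 2 for Col4a1 (adjusted p = 0.0832 and 0.0879), Col4a2 (0.107 and 0.0847), Lox (0.151 and 0.256) and Ccn1 (0.0991 and 0.0582). Another loss came for Lox without null replicate 1, 3, 4 or 5 (0.0556 to 0.0589). The mean of its probe sets ended the Lox call too (0.0953).

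Genes of other lineages were mostly near the floor. Of 23 measured neuroectoderm genes, 17 stayed under 50 on all 7 arrays. Sox1, the first neural plate factor, read 9 to 16 in null and 9 to 11 in Fl/Fl (0.16, adjusted p = 0.96). Pax6 was called higher at 6 to 23 in null and 5 on both Fl/Fl arrays (0.68, adjusted p = 0.0444), near the floor. Cdh2 and Fabp7 (-1.31, adjusted p = 0.0139) were lower. Of 33 Hox genes, 32 were under 50 on all arrays and Hoxb1 was the one call. Among 15 trophoblast genes, Cdx2, Krt7 (-2.73, adjusted p = 0.00225), Tfap2c (-1.57, adjusted p = 0.00248) and Peg10 (-2.23, adjusted p = 0.0164) were lower. The call did not hold without Fl/Fl replicate 1 and again without replicate 2 for Pax6 (adjusted p = 0.233 and 0.207) and Peg10 (0.0653 and 0.202), and without Fl/Fl replicate 2 for Fabp7 (0.696), Krt7 (0.0523) and Tfap2c (0.0582). It was also lost for Pax6 without null replicate 1 or 3 (0.0516 to 0.0769).

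The cell cycle list had 3 of 34 genes higher and 2 lower (median 0.14), a total near the 11.6% called over all genes. Ccne1, the cyclin of S phase entry (1.25, adjusted p = 0.00567), the replication helicase gene Mcm2 (0.76, adjusted p = 0.00571) and the factor Mybl2 (0.99, adjusted p = 0.0139) were higher. The cyclin kinase inhibitor genes Cdkn2b and Cdkn1a were lower. Cdkn2b read 33, 41, 42, 25 and 43 in the null arrays, against 269 and 255 in the Fl/Fl arrays (log2 difference -2.73, SE 0.52, adjusted p = 0.00129) and Cdkn1a read 199, 271, 715, 631 and 658 in the null arrays, against 1434 and 1268 in the Fl/Fl arrays (log2 difference -1.61, SE 0.39, adjusted p = 0.00885). A second Cdkn1a probe set gave -4.61. The mean of its probe sets ended the call for Mybl2 (adjusted p = 0.0597). Of these calls, some were lost without Fl/Fl replicate 1 and again without replicate 2 for Mybl2 (adjusted p = 0.152 and 0.0823) and Cdkn1a (0.113 and 0.063), and without Fl/Fl replicate 1 for Ccne1 (0.107) and Mcm2 (0.0846).

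The day 4 difference was set against those of days 2 and 6, whose arrays are separate samples. At day 2, 113 genes (0.621%) differed, null being higher in 0.104% and lower in 0.517%. At day 6, 1806 (9.93%) did, 3.47% higher and 6.46% lower. The size of the difference itself changed in 378 genes (2.08%) between days 4 and 6. It was higher at day 4 than at day 6 in 0.89% and lower at day 4 in 1.19%. Between days 4 and 2 it changed in 192 (1.06%), being higher at day 4 in 0.39% and lower at day 4 in 0.665%. Among all 458 listed genes, 53 changed against day 6 and 21 against day 2. Of the 93 that were lower at day 4, 25 changed against day 6 and 14 against day 2. Of the 36 that were higher, 8 changed against day 6 and 6 against day 2. Genes called at day 4 were selected by a difference that is part of both changes. Selection can thus raise their counts, which cannot be compared with the shares over all genes. For these called genes, leaving out 1 array of day 4 at a time ended 9 of the 33 changes against day 6 and 13 of the 20 against day 2. The null arrays of day 6 split by Eif2s3y as those of day 4 did, with 217 and 13 in replicates 1 and 2 and 594 to 680 in replicates 3 to 5.

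Several streak genes that were low in null at day 4 were bright in null at day 6. Of the 9 lower streak factors, 5 had a different genotype difference at day 6, namely Mixl1, Lhx1, Sp5, Evx1 and Nkx1-2. Mixl1 averaged 2701.0 ± 1499.5 in null and 1750.5 ± 130.8 in Fl/Fl at day 6 (SD, n = 5 and 2), and the day 4 minus day 6 change of the difference was -7.87, SE 1.13, adjusted p = 0.000316. At day 2 it was at the floor in both genotypes, with 5 ± 0 in null and 5 ± 0 in Fl/Fl. Sp5 averaged 911.8 ± 204.8 in null and 625.0 ± 107.5 in Fl/Fl at day 6 (-5.08, SE 0.80, adjusted p = 0.000746), Evx1 162.2 ± 80.3 in null and 111.0 ± 0.0 in Fl/Fl (-4.37, SE 0.62, adjusted p = 0.000283) and Fgf8 395.2 ± 184.6 in null and 203.5 ± 36.1 in Fl/Fl (-4.74, SE 0.89, adjusted p = 0.00384). At day 6 null did not differ from Fl/Fl past the threshold in these 4 genes (adjusted p = 0.580 to 1). Lhx1 averaged 1779.2 ± 1647.1 in null and 597.5 ± 208.6 in Fl/Fl at day 6 (change -6.17, SE 1.42, adjusted p = 0.0204). Its change had an adjusted p of 0.0625 without Fl/Fl day 4 replicate 1 and 0.0993 without replicate 2. Nkx1-2 went the other way, with 8.0 ± 0.0 in null and 41.0 ± 12.7 in Fl/Fl at day 6 (change 1.30, SE 0.22, adjusted p = 0.00132). Cdx2 stayed lower in null at day 6, with 20.4 ± 6.3 in null and 57.0 ± 31.1 in Fl/Fl (difference -1.26, adjusted p = 0.0023). Fst reversed, with 3815.6 ± 1175.7 in null and 682.5 ± 67.2 in Fl/Fl at day 6, where null was higher (difference 2.43, adjusted p = 0.0405). Its change was -4.87, SE 1.05, adjusted p = 0.0121. With Fl/Fl day 4 replicate 1 left out that had an adjusted p of 0.0595, and with replicate 2 left out 0.0504.

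Bmp4 and Wnt5a behaved otherwise. Bmp4 averaged 266.6 ± 230.7 in null and 2904.0 ± 397.4 in Fl/Fl at day 6, where the difference was -3.79 (adjusted p = 0.000196). Its change between days 4 and 6 was -0.26, SE 0.82, adjusted p = 1. For Wnt5a, 86.6 ± 78.5 in null and 487.5 ± 235.5 in Fl/Fl at day 6 gave a difference of -2.84 (adjusted p = 0.00265) and a change of 0.51, SE 0.81, adjusted p = 1. Both ligands were lower in null at day 6 too.

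The epiblast genes also had different courses. Fgf4 averaged 782.4 ± 158.5 in null and 398.5 ± 50.2 in Fl/Fl at day 2 and 5.4 ± 1.3 in null and 4.0 ± 0.0 in Fl/Fl at day 6, and its difference at day 4 exceeded that of both other days (3.80, SE 0.71, adjusted p = 0.00382 against day 6, and 3.07, SE 0.71, adjusted p = 0.0377 against day 2). The change against day 2 had adjusted p of 0.192 without Fl/Fl day 4 replicate 1 and 0.0716 without replicate 2. It was 0.0585 to 0.0644 without null replicate 3, 4 or 5. Sall2 had a course of the same kind, with 494.6 ± 54.2 in null and 352.0 ± 0.0 in Fl/Fl at day 2 and 116.8 ± 33.6 in null and 147.0 ± 24.0 in Fl/Fl at day 6 (2.76, SE 0.35, adjusted p = 6.05e-05 against day 6, and 1.91, SE 0.35, adjusted p = 0.00503 against day 2). The change against day 2 had an adjusted p of 0.0682 without Fl/Fl day 4 replicate 1. Sox2 remained higher in null at day 6, with 1094.2 ± 306.1 in null and 207.0 ± 33.9 in Fl/Fl (difference 2.34, adjusted p = 1.9e-05, change -0.14, SE 0.41, adjusted p = 1), and so did Otx2, with 1186.6 ± 503.7 in null and 138.5 ± 30.4 in Fl/Fl (difference 2.98, adjusted p = 0.000462, change -0.14, SE 0.70, adjusted p = 1). Pou5f1, not called at day 4, averaged 4093.2 ± 900.6 in null and 439.0 ± 77.8 in Fl/Fl at day 6, a difference of 3.19 (adjusted p = 8.84e-07) and a change of -2.51, SE 0.45, adjusted p = 0.00228.

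**Figure D5:**
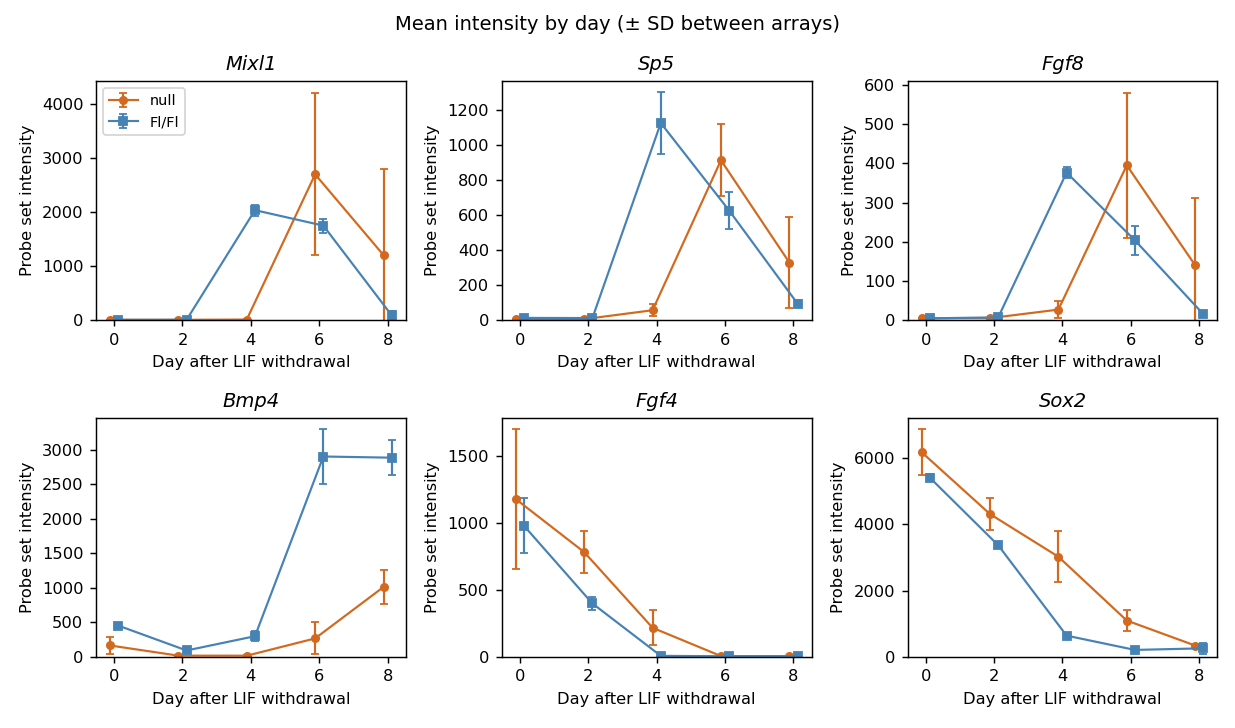
Mean probe set intensity by day after LIF withdrawal for 6 genes, null as circles and Fl/Fl as squares, with bars of 1 SD between arrays (null n = 3, 5, 5, 5 and 2, Fl/Fl n = 2 on each day; bars are clipped at 0). Mixl1, Sp5 and Fgf8 are high in Fl/Fl at day 4 and in null at day 6, Bmp4 stays lower in null at days 4 and 6, and Fgf4 and Sox2 are higher in null at day 4.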

How the data were processed

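RNA of mouse ES cells, extracted with Trizol per the labels, was labelled with biotin and hybridised to Affymetrix mouse 430 2.0 arrays, 30 in all. The authors deposited 1 intensity per probe set and array on a linear scale, in whole numbers from 1 to 68951 for 45101 probe sets. The sources used here do not give the summary method or the normalization. The arrays had like means (332 to 364) and medians (10 to 11), and precision is limited by their number. Probe sets were named from GEO's platform annotation: 34958 had 1 gene symbol, 932 several and 9211 none. Each of 18194 genes was read by its probe set with the highest mean over all arrays.

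A mean per genotype and day was fitted to log2(intensity + 4) on all 30 arrays with limma 3.58.1 (lmFit and eBayes, R 4.3.3, 20 residual degrees of freedom), tested on simulated data first, with no filter on low values and a two-sided Benjamini-Hochberg threshold of 0.05. Changes between days are contrasts of the same fit. Alternatives covered scaling, pseudocounts of 1 and 32, a filter, probe set means, the spread model, array weights, a replicate block, array sets and leaving out arrays. Named genes are Jarid2, members of the gene lists, and the 15 largest called rises and falls without overlap of the groups. The members and lists were chosen with earlier results of these data known. Of 485 listed symbols, 458 were measured.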

Additional observations from a re-analysis of the deposited data

Results flagged for a closer look

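In 15 of the 166 genes whose values were followed, 1 null array stood apart from the other 4 by more than Dixon's critical value of 0.71. Chance passes that value in about 1 in 20 groups. Most of these genes were near the floor, where whole-number values can pass it by a step of 1 unit. Replicate 2 was high in Mixl1 (27, against 5 to 6 in the other null arrays), Csf1 (63, against 9 to 14), Pcdh7 (11, against 7 to 8), Gsc (9, against 6), Foxa2 (5, against 4), Tfap2c (78, against 49 to 53) and Col4a1 (889, against 594 to 624). Replicate 4 was high in Evx1 (6, against 5) and Cdx2 (11, against 10). Replicate 3 was high in Frzb (19, against 9 to 11) and low in Sox17 (5, against 8 to 9) and Col3a1 (8, against 9). Replicate 1 was high in Krt7 (24, against 18 to 19) and low in Lox (7, against 8). Replicate 5 was low in Kdr (8, against 12 to 13).

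The genotype difference of 33 listed genes called at day 4 differed from that of day 6 (limma). The difference at day 4 minus that at day 6 was -7.87 for Mixl1, -6.17 for Lhx1, -5.63 for Cyp26a1, -5.08 for Sp5, -4.87 for Fst, -4.74 for Fgf8, -4.37 for Evx1, -4.31 for Apln, -3.91 for Lgals3 and -3.81 for Apela. It was -3.48 for Frzb, -3.27 for Krt19, -3.18 for Prdm1, -3.12 for Lefty2, -2.95 for Fzd10, -2.65 for Rdh10, -2.36 for Krt8, -2.26 for Wnt5b and -2.01 for Fn1. Smaller changes were -1.84 for S100a10, -1.75 for Cldn7, -1.73 for Pmepa1, -1.58 for Klf5, -0.92 for Epcam, -0.82 for Slc2a3 and -0.69 for Rbbp7. Positive changes were 1.30 for Nkx1-2, 1.43 for Foxd3, 1.53 for Smad7, 2.23 for Sfrp2, 2.76 for Sall2, 2.94 for Dnmt3a and 3.80 for Fgf4. Leaving out 1 array of day 4 ended the change for Cyp26a1, Dnmt3a, Frzb, Fst, Krt8, Lhx1, Rdh10, Slc2a3 and Smad7.

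Against day 2, the difference changed in 20 listed genes called at day 4. The values were -7.41 for Mixl1, -6.01 for Cyp26a1, -4.05 for Evx1, -3.87 for Sp5, -3.82 for Col5a1, -3.62 for Apln, -2.73 for Fn1, -2.72 for Lgals3, -2.43 for Nog, -2.38 for Fzd10 and -2.35 for Wnt5b. Further values were -1.85 for Cdx2, -1.35 for Stat3, -1.16 for S100a10, 0.96 for Phc1, 1.82 for Sox3, 1.85 for Sox2, 1.91 for Sall2, 2.05 for Sfrp2 and 3.07 for Fgf4. Of these, 7 held when any 1 array of day 4 was left out, namely Col5a1, Evx1, Fn1, Fzd10, Mixl1, S100a10 and Wnt5b.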

How the results depend on the processing

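The 2 Fl/Fl arrays of day 4 set much of the precision. Of 2112 called genes, leaving out 1 array gave 895 to 2459 (233 to 950 higher, 662 to 1509 lower, against 760 and 1352). The lowest total came without Fl/Fl replicate 1. Estimated array weights gave 4262 calls (1845 higher, 2417 lower), and null replicates 1 and 2 alone gave 1197 (488 higher, 709 lower). Quantile normalization gave 1142 and the aligned 75th percentile 1388 higher genes. The streak list counted 5 lower genes with null replicates 1 and 2 alone and 6 to 11 under the other settings. The 8 higher pluripotency genes became 18 with array weights, 17 with null replicates 3 to 5 alone, 3 with replicates 1 and 2 alone, and 3 to 14 when 1 array was left out. The count of higher epiblast genes, 13, ranged from 10 to 15. With the replicate number as a block, 1884 genes were called, 5 pluripotency genes were higher, and 451 and 268 genes changed between days 4 and 6 and days 4 and 2, against 378 and 192. The labels do not say that numbers pair the samples, and the deviations of same-numbered arrays correlated at -0.01 and -0.07. With 2 Fl/Fl arrays, their deviations from their own mean are mirror images, so these correlations cannot settle whether numbers pair samples. Of 130 called genes among the 166 whose values were followed, 71 held in all 19 settings, 59 lost the call in at least 1, and none reversed as a call. The cause of these shifts was not tested.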
